A study of Arabidopsis thaliana with 28 samples.

Results

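The domains of acetylated lysine 9 of histone H3 (H3K9ac) were compared between 2 low inputs of the PHILO chromatin immunoprecipitation (ChIP) procedure, 1 mg of ground seedling tissue and 100K purified nuclei. The 4 libraries were 2 of 1 mg tissue, taken by their titles (Sonic_0.001g), and 2 of 100K nuclei (titled 100K), out of 28 libraries in the series. All 4 came from untreated Arabidopsis seedlings, taken whole, of the accession Col-0 and harvested at an age of 10 days from a long-day light regime, fixed with formaldehyde, sonicated and precipitated with the same H3K9ac antibody. For the tissue libraries, the ground material was weighed and its chromatin extracted, whereas for the nuclei libraries the nuclei were purified, stained and counted before sonication. The study describes its replicates as biological, but the labels do not say which seedlings were pooled, and with 2 libraries a side an exact permutation test cannot give a p below 0.333. Whole seedlings mix many cell types, so fewer cells with a mark and less of the mark per cell cannot be told apart, and reads outside domains were not analysed here.

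H3K9ac is placed on histone tails by acetyltransferases and removed by deacetylases, and in plants it marks the first nucleosomes of transcribed genes. It is read by bromodomain proteins and accompanies open chromatin at active promoters. A domain caller finds such stretches by comparing ChIP reads with reads from an unspecific IgG precipitation. All domains with the same borders in any pair of the 28 lists had the same IgG count (1019607 of 1019607 comparisons), so the 2 groups were called against the same IgG control.

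The libraries were of similar size. The 1 mg libraries held 13934 and 14486 domains on chromosomes 1 to 5 and the 100K libraries 13849 and 14171. These lists covered 21.2 and 21.0 Mb in the 1 mg libraries and 21.0 and 21.7 Mb in the 100K libraries, with 4452368 and 4200396 ChIP reads in domains against 3841700 and 5312503. The groups overlapped in both measures, and the differences were 200 domains (exact permutation p = 0.667) and -0.24 Mb (exact permutation p = 1). Recovered sequencing depth, in percent of the mean of the deepest PHILO libraries (10M), was 72.2 and 63.4 for 1 mg and 57.4 and 78.1 for 100K, so the deepest and the shallowest of the 4 were both nuclei libraries. Enrichment of the summed ChIP reads over IgG was 3.86 ± 0.23 (SD, n = 2) for 1 mg and 4.03 ± 0.04 (SD, n = 2) for 100K (exact permutation p = 0.667). The median domain was 1000 bp wide in both 1 mg libraries and 1200 bp in both 100K libraries, which is 1 step of the 200 bp grid on which all borders lie and does not overlap between groups (exact permutation p = 0.333, the smallest possible). No domain of the plastid or mitochondrial genome was listed in any of the 4.

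Most domains occurred in all 4 libraries. Joining overlapping or touching domains gave 13995 merged regions, of which 12950 (92.5%) had a domain in all 4 libraries and held 98.9% of all ChIP reads in domains. Only 73 regions (0.522%) had a domain in both 1 mg libraries and in neither 100K library, and 41 (0.293%) showed the reverse. A further 198 regions (1.41%) had a domain in 1 library of each group, a pattern that more combinations of libraries can give. Patterns of 2 against 2 also arise without a difference between inputs, so these counts alone do not show one. Below, a region called specific to an input is one with this presence pattern and no more. The input-specific regions were weak. Their median ChIP count per library, scaled to equal depth, was 83.0 in the 1 mg-specific and 95.4 in the 100K-specific regions, against 258 in the shared ones. Regions that set a single library apart varied in number. Those found in 1 library alone numbered 42 and 213 for 1 mg tissue and 26 and 95 for 100K nuclei. Those missing from 1 library alone numbered 119 and 22 for 1 mg and 170 and 46 for 100K. A pattern of 1 library is a looser criterion than 2 against 2, so these counts are not like for like.

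The bases under the domains were shared between inputs slightly less than between replicates. The Jaccard index, the length covered by both libraries over the length covered by either, was 80.4% for the 1 mg replicates and 80.3% for the 100K replicates. The 4 pairs of a 1 mg and a 100K library lay between 79.7% and 79.8%. Against the 500K nuclei libraries the mean index was 78.4% for 1 mg and 78.7% for 100K, against eChIP, a protocol that shortens the extraction of nuclei, 74.7% and 75.4%, and against the 10M libraries 75.3% and 75.8%. Against the 20K nuclei libraries it was 58.5% for both inputs, but the 20K replicates shared only 56.6% with each other. Against CUT&Tag, which cuts the marked chromatin in place, it was 47.4% and 47.5%. The replicates of these other groups also differed in how much they shared, with 77.8% for 500K, 76.5% for eChIP, 85.9% for 10M and 68.7% for CUT&Tag. A lower index against a group thus also holds the spread within that group.

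**Figure D1:**
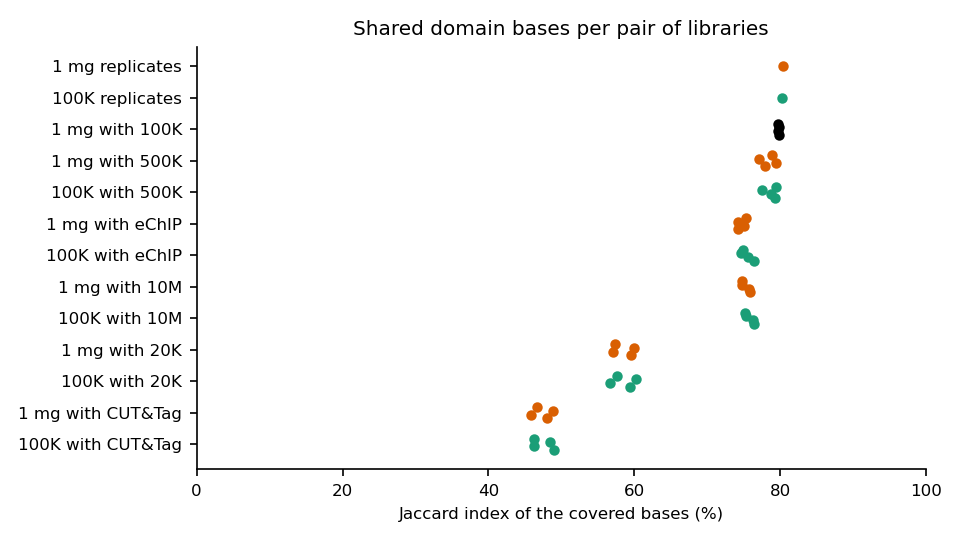
Jaccard index of the covered bases (x axis, percent) for pairs of libraries (y axis, kinds of pair), 1 point per pair, orange for pairs with a 1 mg library, green for pairs with a 100K library and black for 1 mg with 100K. The black points, at 79.7% to 79.8%, lie next to both replicate pairs at 80.4% and 80.3%.

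The profile over genes peaked just inside the gene in all 4 libraries. Of 27444 protein-coding genes, a domain covered the base 400 bp after the annotated start in 56.8% and 57.7% for 1 mg and in 56.4% and 57.8% for 100K. At the start itself these shares were 31.5% and 30.5% for 1 mg against 31.0% and 31.6% for 100K, and 1000 bp upstream 19.3% and 18.8% against 19.0% and 19.6%. The groups overlapped at each of these positions. A start lay inside a domain of at least 1 library for 10495 genes and inside domains of all 4 for 6807. It lay in both 1 mg and neither 100K library for 185 genes (1.76% of the 10495) and in both 100K and neither 1 mg library for 217 (2.07%). For 646 genes (6.16%) it lay in 1 library of each group, which more combinations of libraries can give. These counts alone therefore do not show a difference between inputs.

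**Figure D2:**
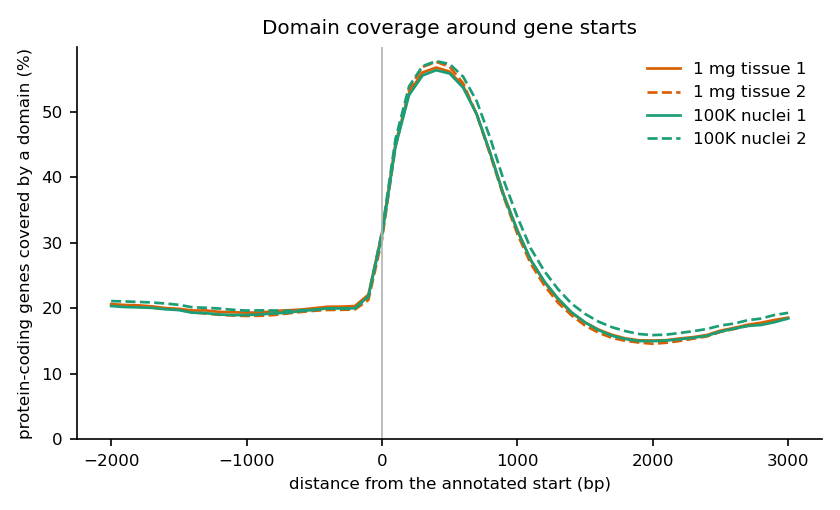
Share of protein-coding genes covered by a domain (y axis, percent) against the distance from the annotated start (x axis, bp, positive into the gene) for the 2 libraries of 1 mg tissue (orange) and of 100K nuclei (green), replicate 1 solid and replicate 2 dashed. All 4 curves peak about 400 bp inside the gene, between 56.4% and 57.8%.

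Stretches covered in both libraries of 1 input only lay outside genes more often than those covered in all 4 libraries, mainly those of 1 mg tissue. Of the 200 bp bins covered in all 4 libraries (85976 bins), 6.33% lay within 1 kb upstream of a gene start and 4.69% farther out between genes. Of the 2043 bins covered in both 1 mg libraries and neither 100K library, 20.2% lay within 1 kb upstream of a start and 19.3% farther out, against 10.4% and 8.18% of the 2554 bins covered in both 100K libraries only. For bins covered in any of the 4 libraries these shares were 8.99% and 6.38%, and neighbouring bins of 1 domain were counted separately. Bins covered in all 4 made up 66.6% of these. The remaining bins, covered in some libraries but not all, were not set apart as a background. Whether the shares are particular to an input, and not to variable bins in general, was therefore not tested. Over whole libraries the differences were small. Bins within 1 kb upstream made up 8.15% and 7.81% of the covered bins for 1 mg and 7.85% and 7.17% for 100K, which overlap (exact permutation p = 0.667), as did bins in exons with 64.8% and 65.4% against 65.2% and 66.2% (exact permutation p = 0.667). Intergenic bins beyond 1 kb made up 6.01% and 5.82% of the covered bins for 1 mg and 5.56% and 5.10% for 100K, which do not overlap (exact permutation p = 0.333, the smallest possible). Bins in introns made up 21.0% in both 1 mg libraries and 21.4% and 21.6% in the 100K libraries (exact permutation p = 0.333).

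Domain width was compared as the covered length of each of the 12950 shared regions. Both 1 mg libraries were covered longer than both 100K libraries in 717 regions (5.54%), and both 100K libraries longer in 1204 (9.30%), together 14.8% of those compared. In 1742 regions the covered length was the same in all 4. The differences were mostly 1 or 2 grid steps, with a median of 400 bp in both directions, and 143 regions (1.1%) differed at least 2-fold in mean covered length. Between any pair of libraries 38.0% to 39.4% of the regions had the same covered length, and this share was 38.8% and 38.3% for the replicate pairs.

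ChIP counts were slightly less alike between inputs than between replicates. Across the 12950 regions, log2 counts correlated at a Pearson r of 0.971 to 0.972 for the 4 pairs between groups. The value was 0.973 for the 1 mg replicates and 0.975 for the 100K replicates. This is a description across merged regions, with 1 antibody but with domain borders that mostly differed between libraries. In 98.1% of the regions the depth-scaled counts of a pair between groups lay within 1.5-fold, against 98.1% and 98.5% for the replicate pairs. The SD of the log2 ratio was 0.212 to 0.217 between groups and 0.211 and 0.204 for the replicates. Where a region consisted of 1 domain with identical borders in all 4 libraries (1637 regions, so chosen for agreement), the squared differences of the counts were 0.89 to 1.01 times what counting noise alone gives between groups and 0.82 and 0.93 times for the replicates. Over all 12950 regions the same ratio was 2.3 to 2.88 between groups, highest for the pairs with replicate 2 of 100K nuclei (2.71 and 2.88), and 2.32 and 2.33 for the replicates.

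In edgeR's quasi-likelihood test with Benjamini-Hochberg adjustment over the 12950 regions, 6 regions (0.0463%) had an adjusted p of at most 0.05. Of these, 5 (0.0386%) were higher in 1 mg tissue and 1 (0.00772%) in 100K nuclei. At an unadjusted p under 0.05 there were 834 (6.44%). The median absolute log2 fold change over all regions was 0.08, 77 regions (0.595%) differed 1.5-fold or more and 3 differed 2-fold or more. As yardsticks, 1 of 12973 regions (0.00771%) was called between 1 mg tissue and 500K nuclei and 0 of 12925 between 100K and 500K nuclei (672 at an unadjusted p under 0.05), while 3633 of 13224 (27.5%) were called between 1 mg tissue and the 10M libraries and 3274 of 13116 (25.0%) between 100K nuclei and the same 10M libraries. The dispersion that edgeR fitted between replicates differed among these comparisons, and a larger one gives fewer calls. It was 0.0043 for 1 mg against 100K, 0.0073 and 0.0071 for the comparisons with 500K, and 0.0026 and 0.0025 with 10M. The median absolute log2 fold change was 0.10 in both comparisons with 500K nuclei and 0.17 and 0.16 in those with 10M. The number of calls moved when a library was left out. Without replicate 2 of 100K nuclei edgeR called 0 regions, although the log2 fold changes of the 6 stayed close to those of the full fit (1.38 for ACS8, 0.96 for NRT1.7, 0.53 for ABR1, 1.00 for PP2-B13, 0.87 for AT3G57210/AT3G57220 and -0.79 for LAX1). Without replicate 1 of 100K nuclei 2 of the 6, ACS8 and NRT1.7, were kept among 5 calls, while 25 and 37 regions were called without replicate 1 or 2 of 1 mg tissue, each time with all 6 among them. With domains limited to a log2 fold change over IgG of 1 or more, ACS8, NRT1.7 and PP2-B13 no longer had a domain in all 4 libraries and 3 of the 6 calls were kept.

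**Figure D3:**
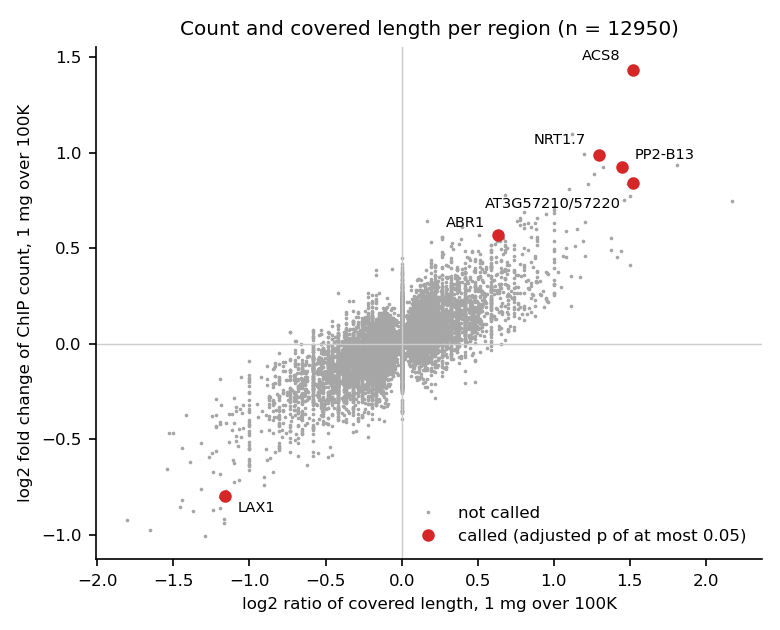
Log2 fold change of the ChIP count (y axis) against the log2 ratio of mean covered length (x axis), both 1 mg tissue over 100K nuclei, for the 12950 regions with a domain in all 4 libraries. Grey points were not called, and the 6 red points, named by gene, were called by edgeR at an adjusted p of at most 0.05; both quantities rise together (Pearson r = 0.74 across regions) and no called region has equal covered length.

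Counts and covered lengths moved together. A region's count holds only the reads inside called domains, so a library with a longer domain also counts more reads, and the log2 ratio of the counts correlated with that of the covered lengths at a Pearson r of 0.74 across regions. The 717 regions covered longer in 1 mg had a median log2 fold change of 0.17, the 1204 covered longer in 100K one of -0.15, and the 1742 of equal length one of 0.01, against 0.00 over all tested. With covered length as an offset 0 regions were called (682 at an unadjusted p under 0.05, edgeR). The fitted dispersion was then 0.013, against 0.0043 in the main test, and a larger one gives fewer calls. Of the 1637 regions with identical borders 0 were called (84 at an unadjusted p under 0.05, edgeR). Among these 1637, none differed 1.5-fold and the fold changes ran from -0.37 to 0.45 on the log2 scale. All 6 called regions differed in covered length without overlap, so their count and border differences cannot be told apart in the deposited lists.

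The region with the largest difference held ACS8 (AT4G37770), which encodes an aminocyclopropane carboxylate synthase, the enzyme that makes the direct precursor of the hormone ethylene. The region chr4:17749201-17754200 (TAIR10) held 392 and 319 ChIP reads in the 1 mg libraries and 122 and 157 in the 100K libraries. Scaled to CPM (counts per 1000000 reads in the tested regions, with TMM factors), both 1 mg libraries lay more than 2-fold above both 100K libraries, at 83.1 ± 8.4 (SD, n = 2) against 30.9 ± 1.5 (SD, n = 2). The log2 fold change was 1.43 ± 0.12 (SE, edgeR adjusted p = 0.0060). The covered length was 4600 bp in both 1 mg libraries and 1600 bp in both 100K libraries. In 100K nuclei the domain began 122 bp inside the gene and ended within it, whereas in 1 mg tissue it began 2478 and 2878 bp upstream of the start and ran on across the start without a break. In replicate 2 of 1 mg tissue it ended at the same base as in 100K nuclei, and in replicate 1 it went 400 bp farther, past the end of the gene. Both 500K nuclei libraries had the short domain of the 100K libraries with the same borders, the 10M libraries had none, and the eChIP libraries differed. Replicate 1 of eChIP had 1 domain that began 1078 bp upstream, while replicate 2 had the short domain of the 100K libraries and a separate one wholly upstream, from 2878 to 679 bp before the start. Enrichment over IgG inside the domains was lower in the longer ones, 1.80 and 1.71 for 1 mg against 2.02 and 1.91 for 100K. This was also the region called between 1 mg tissue and 500K nuclei, a comparison that uses the same 1 mg libraries.

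ABR1 (AT5G64750) encodes a transcription factor of the AP2/ERF family that represses responses to abscisic acid. The region chr5:25885601-25893400 held 1001 and 973 reads in 1 mg tissue and 611 and 803 in 100K nuclei. That is 231 ± 5.6 CPM (SD, n = 2) against 156 ± 5.5 (SD, n = 2), with a log2 fold change of 0.57 ± 0.06 (SE, edgeR adjusted p = 0.029). The covered lengths were 7800 and 7400 bp against 4600 and 5200 bp. In all 4 libraries the domain ran far upstream, 5848 and 5448 bp before the start in 1 mg tissue and 3848 and 4448 bp in 100K nuclei, and it ended 1951 bp inside the gene in 1 mg and 751 bp inside in 100K. In the eChIP libraries it reached 4448 and 5248 bp upstream, while 1 of the 10M libraries had a single domain of 600 bp inside the gene and the other had none.

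NRT1.7 (AT1G69870) encodes a nitrate transporter that loads nitrate from older leaves into the phloem. The region chr1:26311801-26317200 held 523 and 524 reads in 1 mg tissue and 241 and 319 in 100K nuclei. The log2 fold change was 0.99 ± 0.09 (SE, edgeR adjusted p = 0.0060), from 123 ± 5.6 CPM (SD, n = 2) against 61.9 ± 1.9 (SD, n = 2). The inputs shared the part over the start, and the 1 mg domain went 3986 bp upstream in both libraries against 986 bp in both 100K libraries. The 500K libraries also stopped 986 bp upstream, the eChIP libraries 1186 and 986 bp upstream, and the 10M domains lay wholly inside the gene. Enrichment was 1.72 and 1.96 over the long domains and 3.14 and 2.55 over the short ones.

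PP2-B13 (AT1G56240) encodes an F-box protein related to the phloem lectin PP2. The region chr1:21056401-21059400 held 286 and 262 reads in 1 mg and 122 and 186 in 100K, a log2 fold change of 0.92 ± 0.11 (SE, edgeR adjusted p = 0.036). The 1 mg domains were 3000 bp long in both libraries and reached 1823 bp upstream of the start. The 100K domains were 1000 and 1200 bp long and reached 23 bp upstream. The eChIP domains resembled those of 1 mg tissue with 1823 and 1223 bp upstream, and the 500K libraries were split, with 2023 bp in 1 library and 23 bp in the other.

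The divergent gene pair AT3G57210 and AT3G57220, the latter encoding a glycosyl transferase family 4 protein, lay in chr3:21173001-21175400. This region held 335 and 322 reads in 1 mg and 161 and 229 in 100K, a log2 fold change of 0.84 ± 0.10 (SE, edgeR adjusted p = 0.029). In 1 mg tissue 1 domain of 2200 or 2400 bp bridged both genes, whereas in 100K nuclei a domain of 800 bp lay over the first part of AT3G57220 only. Here 1 of the 500K and 1 of the 10M libraries also had a bridging domain and the other library of each group had 2 separate ones.

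LAX1 (AT5G01240), an auxin influx carrier of the AUX1 family, was the gene called in the other direction. The region chr5:97801-101600 held 218 and 213 reads in 1 mg and 332 and 465 in 100K, or 50.5 ± 1.4 CPM (SD, n = 2) against 87.7 ± 0.9 (SD, n = 2). The log2 fold change was -0.80 ± 0.09 (SE, edgeR adjusted p = 0.029). All 4 domains began 265 bp inside the gene. The domain ended 2064 and 1864 bp inside the gene in 1 mg tissue, but ran on to 4064 bp, near the annotated end, in both 100K libraries. The 500K, 10M and eChIP libraries all had a domain of 3200 to 3800 bp here, so the 1 mg libraries were the short ones.

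**Figure D4:**
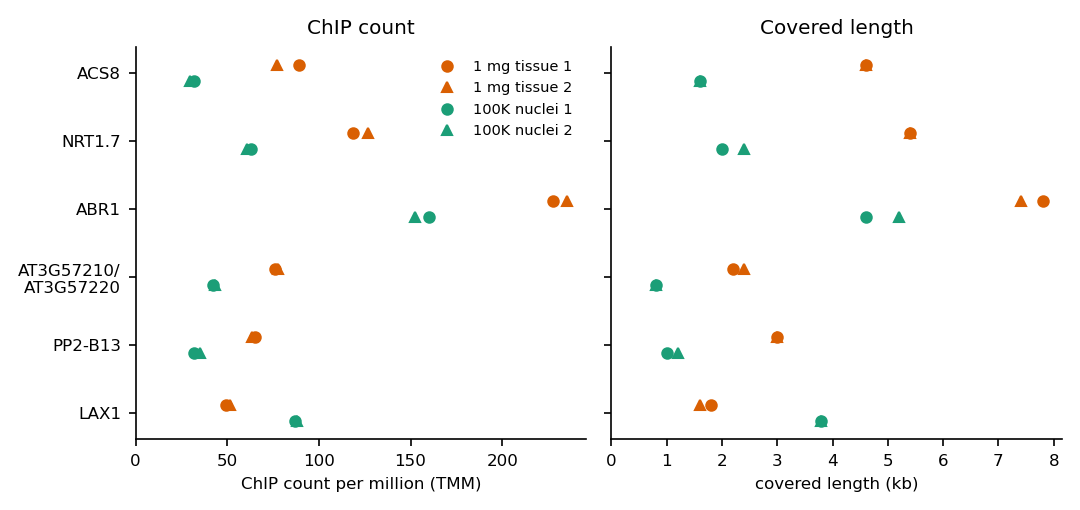
ChIP count as CPM (left, x axis) and covered length in kb (right, x axis) of the 6 called regions (rows) in the 2 libraries of 1 mg tissue (orange) and of 100K nuclei (green), circles for replicate 1 and triangles for replicate 2. In each row the groups are apart in both quantities, with LAX1 the only one lower in 1 mg tissue (50.5 against 87.7 CPM).

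**Figure D5:**
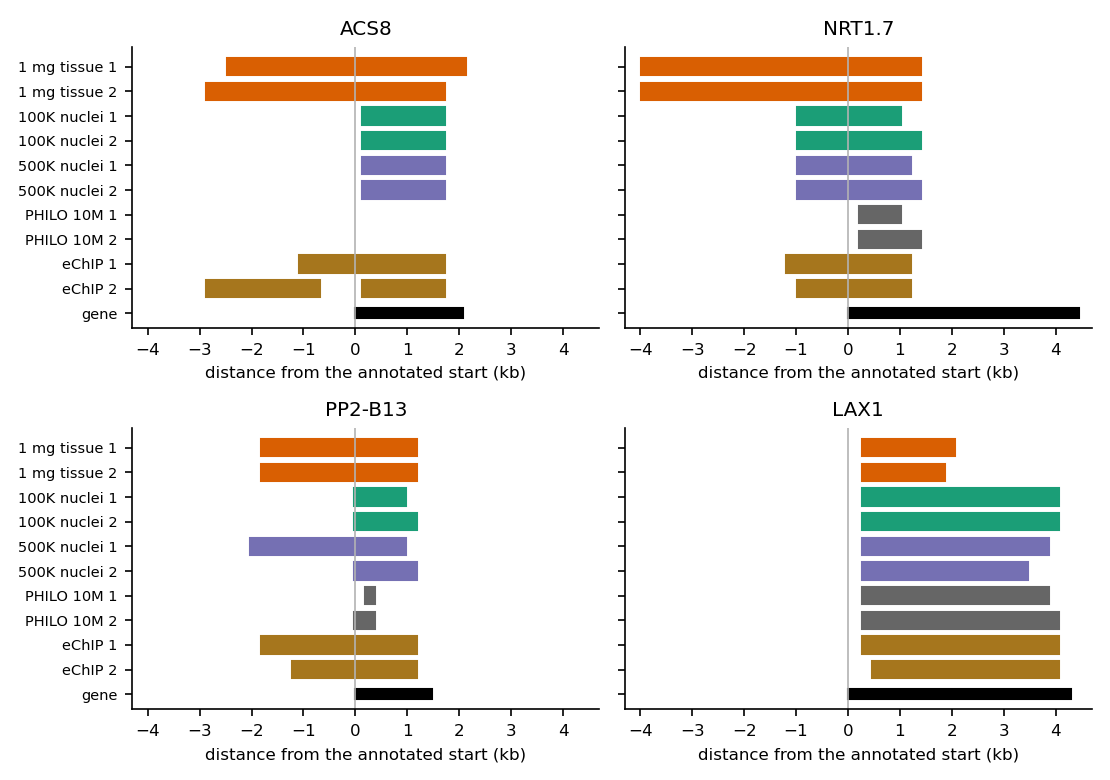
Domains (bars) of 10 libraries (rows) around ACS8, NRT1.7, PP2-B13 and LAX1, by distance from the annotated start (x axis, kb, positive into the gene), with the gene as a black bar. The 1 mg domains reach 2478 to 3986 bp upstream at ACS8 and NRT1.7 and end early at LAX1.

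At ACS8, PP2-B13 and the divergent pair, the bases just before the start were covered by a domain in both 1 mg libraries and not, or for at most 23 bp, in the 100K libraries. These bases are shown here, from the TAIR10 reference, since they are the promoter stretches whose domain coverage differed between the inputs. Capitals mark TATAAA on either strand, the core of the TATA box, which 41.0% of all 27443 windows of 200 bases before a protein-coding start contain. CACGTG, the G-box bound by bHLH factors, was searched too and is in 5.64% of those windows but in none of these 3 stretches.
ACS8, chr4:17751879-17752078, plus strand: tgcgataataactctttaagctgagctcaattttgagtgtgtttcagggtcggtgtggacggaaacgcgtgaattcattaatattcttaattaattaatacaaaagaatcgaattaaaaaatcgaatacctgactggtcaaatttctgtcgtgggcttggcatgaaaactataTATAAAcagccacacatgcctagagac
PP2-B13, chr1:21057578-21057777, minus strand: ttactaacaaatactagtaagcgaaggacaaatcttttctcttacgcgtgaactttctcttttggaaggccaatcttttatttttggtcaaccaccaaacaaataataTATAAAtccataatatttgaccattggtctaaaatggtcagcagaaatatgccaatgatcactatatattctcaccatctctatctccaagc
AT3G57210/AT3G57220, chr3:21174173-21174394, plus strand, all 222 bases between the starts: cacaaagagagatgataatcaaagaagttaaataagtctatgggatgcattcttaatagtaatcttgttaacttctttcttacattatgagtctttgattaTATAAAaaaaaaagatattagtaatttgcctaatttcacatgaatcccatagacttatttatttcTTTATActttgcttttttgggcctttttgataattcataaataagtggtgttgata
The stretches before ACS8 and PP2-B13 held 1 copy each and the divergent stretch held 1 on each strand.

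Next in order of p came regions that did not pass the threshold. Toward 1 mg tissue, these were the noncoding RNA gene AT4G14548 (log2 fold change 0.75, edgeR adjusted p = 0.14), the array AT5G44563 to AT5G44567 (0.52, 0.18), the UDP-galactose transporter gene AT2G02810 (0.93, 0.19), the array of PEP7, PROPEP4 and PROPEP5, precursors of elicitor peptides of plant immunity (0.50, 0.19), and AT4G26190 (0.94, 0.19). Toward 100K nuclei, they were the auxin-responsive SAUR63 array (-0.71, 0.10), CRN, a kinase-like protein of the CLAVATA pathway of the shoot meristem (-0.72, 0.14), the sulfate transporter AST56 (-0.67, 0.17), AT2G39518/AT2G39520 (-0.88, 0.17), AT4G32990 (-1.01, 0.17), the cytochrome P450 CYP71B19 (-0.80, 0.19), the mannanase MAN7 (-0.87, 0.19), the farnesol kinase FOLK (-0.61, 0.19) and GRP2B, a glycine-rich RNA-binding protein (-0.66, 0.19). At the SAUR63 array the counts were 248 and 251 in 1 mg and 392 and 473 in 100K, with covered lengths of 1800 and 2400 bp against 5000 and 3800 bp. At AT4G14548 they were 383 and 433 against 204 and 316, with 2200 and 3200 bp against 600 bp in both 100K libraries. For the 20 regions listed by p, 19 fold changes turned their sign with covered length as an offset. These regions were picked by counts that rise with covered length, so this turn cannot be read as a separate result.

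By covered length alone, AT4G14548, AT4G26190, the divergent pair, ACS8 and AT3G12833/AT3G12835 had the largest ratios toward 1 mg tissue among regions whose lengths did not overlap. Toward 100K nuclei these were AT2G39375, GRP2B, AT4G37210/AT4G37220 (a WCOR413 cold acclimation protein), AT5G14230 and PLIM2b/KEA1 (a potassium efflux antiporter of the chloroplast envelope). Some of these rested on 1 library. At AT2G39375 the covered length was 400 bp in both 1 mg libraries, 600 bp in replicate 1 of 100K and 2200 bp in replicate 2. At GRP2B both 100K libraries were long, with 3600 and 3400 bp against 1600 and 800 bp.

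The strongest regions with a domain in both 1 mg libraries and no 100K library were low in reads. An intergenic region at chr4:740601-743000 held 191 and 193 reads at an enrichment over IgG of 1.51 in both libraries. MLP43, a major-latex-like protein gene (chr1:26724801-26726600), held 166 and 140. KOR2, an endoglucanase of the KORRIGAN family (chr1:24393401-24395400), held 159 and 144. MES16, a methylesterase that acts in chlorophyll breakdown (chr4:9392201-9393400), held 142 and 127 at an enrichment of 2.28 and 2.32, and the intergenic region chr3:9381801-9383600 held 172 and 124. None of these had a listed read in 100K nuclei because no domain was called, and a weak signal under the calling limit cannot be told apart from none. Of the 73 regions, 14 (19.2%) held a protein-coding start, against 57.0% of the shared regions and 17.2% of the regions found in 1 library of each group. A domain of at least 1 of the 500K libraries overlapped 49 of them (10 in both), and both 10M libraries had a domain at 48.

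Of the 41 regions specific to 100K nuclei, 7 (17.1%) had sequence of at least 90% identity with the plastid genome, against 0 of the 73 specific to 1 mg and 23 (0.178%) of the 12950 shared ones with either organelle genome. Nuclear chromosomes of plants carry such copies of plastid DNA. In 6 of the 7 the match spanned over 50% of the region, which no shared region reached. They included the 3 strongest 100K-specific regions. The largest, chr3:13536601-13541600 over the transcribed pseudogene AT3G33004, held 725 and 889 ChIP reads in 100K nuclei against 572 IgG reads, an enrichment of 2.1 and 1.89, and 98.1% of its length matched plastid sequence. Next were chr2:3187001-3189400 over AT2G07565, annotated as a Ycf1 domain protein after a plastid gene (317 and 349 reads, 85.8% matched), and chr2:2938001-2938800 over the pseudogene AT2G07080 (245 and 323 reads, 77.5% matched). All 7 also had domains in both libraries of 500K nuclei, 20K nuclei and CUT&Tag, and in no library of 1 mg tissue, 10M or eChIP. Whether these reads came from the nucleus or the plastid was not tested, and the count of 41 becomes 34 without these regions.

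The following stretches of 120 bases of the 3 regions show how close this likeness is. Capitals mark the bases that differ from the aligned plastid sequence, all on the plus strand of TAIR10.
AT3G33004, chr3:13537908-13538027: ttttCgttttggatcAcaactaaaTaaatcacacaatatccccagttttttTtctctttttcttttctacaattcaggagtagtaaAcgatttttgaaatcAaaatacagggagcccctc
AT2G07565, chr2:3187959-3188078: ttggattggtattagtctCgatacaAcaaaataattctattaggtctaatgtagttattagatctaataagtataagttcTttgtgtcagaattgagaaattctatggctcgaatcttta
AT2G07080, chr2:2938181-2938300: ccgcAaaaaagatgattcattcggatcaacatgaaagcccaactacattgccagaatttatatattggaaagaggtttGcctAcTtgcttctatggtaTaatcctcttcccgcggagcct
They differ from the plastid genome at 6, 3 and 5 of the 120 bases.

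Other 100K-specific regions had no organelle match. AT3G19500, a bHLH transcription factor gene (chr3:6759401-6761000), held 122 and 154 reads at an enrichment of 2.02 and 1.87. AT2G44380, a C1 domain protein gene (chr2:18323601-18325400), held 112 and 151 at 1.33 and 1.37. Of the 41 regions, 8 (19.5%) held a protein-coding start, and both 10M libraries had a domain at 30.

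Genes of the tissue and of the handling steps were then counted by list. The lists covered photosynthesis, stress and reference genes, and 124 of 139 symbols matched the annotation. Of these 124 genes, 113 lay in regions with a domain in all 4 libraries, 9 had no domain in any and 0 lay in a region specific to 1 input. Assigned to regions in the same way, 60.4% of all 27444 protein-coding genes lay in a region with a domain in all 4 libraries and 36.3% had no domain in any. The listed genes fell into 107 tested regions, of which 0 were called in either direction (0.0463% over all regions). Of the 107, 17 had an unadjusted p under 0.05 (edgeR, 6.44% over all regions). Over all regions this share rose with the count, from 5.22% in the lowest quartile to 8.34% in the highest. It was 33.5% in regions covered longer in 1 mg and 23.0% in those covered longer in 100K. Of the 107, 15 were covered longer in 1 mg and 9 in 100K. A background matched for count and covered length was not drawn, so whether the lists differ from like regions was not tested. The median log2 fold change was 0.02, against 0.00 over all tested.

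Light reaction genes encode the light-harvesting proteins and photosystem subunits. Of their matched members, 35 of 35 lay in regions with a domain in all 4 libraries (60.4% of all protein-coding genes). Such a domain need not overlap the gene itself in each library. The median log2 fold change was -0.03, with 5 of 33 regions at an unadjusted p under 0.05 (edgeR, 6.44% over all regions). PSAK, a photosystem I subunit, had 531 and 495 reads in 1 mg and 378 and 468 in 100K (log2 fold change 0.36, edgeR adjusted p = 0.43). LHCB1.1 and LHCB1.2, near-identical neighbours whose reads may be split by the aligner, had 184 and 65 in 1 mg against 200 and 308 in 100K (-0.94, 0.63), with the 1 mg replicates far apart. The Calvin cycle genes, which fix carbon dioxide, had a median of -0.06 over 13 regions with 1 at an unadjusted p under 0.05.

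Wound and jasmonate genes had a median of 0.06 over 21 regions with 4 at an unadjusted p under 0.05 (edgeR, 6.44% over all regions). OPR3, an enzyme of jasmonate synthesis, was the lowest in p of all the lists, with 776 and 675 reads in 1 mg and 518 and 665 in 100K (log2 fold change 0.38 ± 0.08 SE, edgeR adjusted p = 0.30). The jasmonate repressor gene JAZ8 had 237 and 216 against 175 and 179 (0.43, 0.67). Touch and early stress genes had a median of 0.07 over 15 regions with 3 at an unadjusted p under 0.05, among them the repressor ERF4 with 0.15 and the calmodulin-like TCH3 with -0.12 (edgeR adjusted p = 0.57 and 0.70). Cold genes had a median of 0.11 over 8 regions with 2 at that limit, COR47 and its neighbour ERD10 in 1 region with 0.22 (edgeR adjusted p = 0.54) and ICE1 with -0.20 (0.73). Heat shock genes had a median of 0.05 over 7 regions with 0 at an unadjusted p under 0.05 (edgeR), and 6 of 14 had no domain. The 11 reference genes had a median of -0.02 over 11 regions with 2 at an unadjusted p under 0.05 (edgeR). They ran from ACT2 at -0.32 to a highest value of 0.28.

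Markers of single cell types served as a check of the labelled whole seedlings. Of the mesophyll markers, 5 of 5 lay in regions with a domain in all 4 libraries. The same held for 5 of 7 epidermis and trichome markers, against 60.4% of all protein-coding genes. For root, 11 of 15 markers had no domain in any of the 4 libraries, and likewise 6 of 7 for guard cells, 6 of 7 for xylem, 4 of 6 for phloem and 6 of 6 for the shoot meristem, against 36.3% of all protein-coding genes. These defining markers were thus without a domain in both inputs. Of the 17 marker regions tested, 0 were called (0.0463% over all regions). Of the same 17, 4 had an unadjusted p under 0.05 (edgeR, 6.44% over all regions). These were LHCB1.1, the potassium channel AKT1 of roots with 100 and 150 reads in 1 mg and 67 and 76 in 100K (log2 fold change 0.89 ± 0.25 SE, edgeR adjusted p = 0.57), the phloem gene NAKR1 (0.31, 0.57) and SCRM, which is ICE1. At AKT1 the covered lengths overlapped, with 600 and 1800 bp in 1 mg and 600 and 400 bp in 100K. The longer coverage was thus in replicate 2 of 1 mg tissue alone, and no domain held the gene start.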

How the data were processed

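For each library, the authors aligned reads with Bowtie2 to TAIR10, and epic2 gave the H3K9ac domains (listed as SICER 0.0.52 in the submitters' processing notes) relative to an IgG control, without pooling replicates. Per domain, the deposited columns hold raw counts of ChIP and IgG reads, a log2 fold change after division by library size, a p-value with FDR, and a caller's score, which was not used. The FDR and log2 fold change served as filters only. Window, gap and duplicate settings were not given in the sources used here. The labels give the number in 100K without naming nuclei, which the study's text does.

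Domains of chromosomes 1 to 5 overlapping or touching by at least 1 bp were joined across the 4 libraries. Summed counts were tested with edgeR 4.0.16 (TMM, quasi-likelihood, Benjamini-Hochberg, adjusted p of at most 0.05) in R 4.3.3, with DESeq2 1.42.0 as an alternative, and the test was checked on simulated counts. Library size ratios were recovered from counts and deposited fold changes. Library values were compared by two-sided exact permutation. Intervals and p-values cover these libraries only, and reads carry no molecular identifiers. Regions were matched to the organelle genomes with BLAST 2.17.0 (identity of at least 90%, E-value of at most 1e-10), and genes came from RefSeq's annotation of the same chromosome sequences. The members, lists and rules were chosen with earlier results of these data known. Named were the 10 regions of lowest p per direction, the 5 strongest input-specific regions and the 5 largest covered-length ratios per direction, and for lists the members of lowest p.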

Additional observations from a re-analysis of the deposited data

How the results depend on the processing

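The count of called regions was recomputed under 11 other settings and without each library, and the other results under the settings that apply to them. The 6 called regions became 25 (8 higher and 17 lower in 1 mg tissue, against 5 and 1) when counts were scaled by the recovered library size in place of TMM, which moves the median of all regions by -0.09 on the log2 scale, and 11 (5 and 6), with 3 of the 6 among them, with domains limited to a log2 fold change of 1 or more. With an FDR of at most 1e-10, 8 were called with 5 of the 6 among them, PP2-B13 being lost. They became 0 with the covered length as offset, 0 among the 5442 regions of which every library covered at least 80% (380 at an unadjusted p under 0.05) and 0 with identical borders. DESeq2 called 7, with all 6 among them. With a replicate block the count was 8 (6 and 2), again with all 6. Deviations of same-numbered libraries from their group means correlated at r = 0.01 across regions. With 2 libraries a group the 2 pairs mirror each other, so this value cannot show whether same-numbered libraries share a batch or harvest. Leaving out 1 library gave 0 to 37 calls. With covered length as offset the log2 fold changes turned to -0.093 (ACS8), -0.31 (NRT1.7), -0.071 (ABR1), -0.68 (AT3G57210/AT3G57220), -0.52 (PP2-B13), -1.39 (AT4G14548), -0.36 (AT2G02810), -0.56 (PROPEP4 array) and -0.88 (AT4G26190), and to 0.37 (LAX1), 0.35 (SAUR63 array), 0.37 (CRN), 0.57 (AST56), 0.50 (AT2G39518/AT2G39520), 0.33 (AT4G32990), 0.40 (CYP71B19), 0.35 (MAN7), 0.54 (FOLK) and 0.97 (GRP2B). The share of regions with a domain in all 4 libraries was 89.7% with the log2 fold change limit, 85.2% when a domain had to cover at least 50% of a region, and 93.5% to 94.1% without 1 library. Input-specific regions numbered 233 with the 50% rule, 265 to 358 without 1 library and, in an alternative chosen after seeing the data, 107 without organelle-like sequence. Regions whose covered length did not overlap numbered 4628 to 4708 without 1 library, since fewer libraries overlap less often. The Jaccard index between groups was 79.3% with the log2 fold change limit, 79.9% with an FDR of at most 1e-10 and 79.7% to 79.8% without 1 library. Differences per library changed sign for the number of domains (-76 to 476) and the covered length (-0.61 to 0.12 Mb), while enrichment stayed lower in 1 mg tissue (-0.33 to -0.01). Beyond what a setting itself fixes, the cause of these shifts was not tested. A domain just under the calling limit counts as absent.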
